A study of Rattus norvegicus with 38 samples.

Results

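Profibrotic signals and matrix remodelling enzymes were followed as 6 genes among the 24057 genes of the deposited tables. The members were chosen by Ensembl ID: Tgfb1 (ENSRNOG00000020652), Ccn2 (ENSRNOG00000015036), Spp1 (ENSRNOG00000043451), Mmp2 (ENSRNOG00000016695), Timp1 (ENSRNOG00000010208) and Lox (ENSRNOG00000014426). All 6 IDs were present. The names come with the rule that lists the IDs, since the files hold IDs alone. RNA from hearts of 10-week-old male Sprague-Dawley rats was sequenced in 38 libraries. Failing and healthy hearts were each sampled in 5 regions, namely the sinoatrial node in its inferior (iSAN) and superior (sSAN) part, the atrium on the right (RA) and on the left (LA), and the left ventricle (LV). There were 4 libraries per region and state, except for healthy left ventricles with 2. Pups had their ascending aorta constricted at 1 week of age, per the labels' protocols, and left ventricular hypertrophy followed. Failing and healthy libraries alike carry that text, so the history of the healthy rats is not known from the labels.

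Fibrosis is the build-up of collagen-rich matrix, made mainly by fibroblasts. Transforming growth factor beta (Tgfb1) is secreted in a latent form and, once released, signals through Smad proteins that switch on matrix genes. Ccn2 (connective tissue growth factor) is a classical target of that signal and of stretch-sensitive Yap and Tead proteins, Spp1 (osteopontin) is a secreted matricellular protein of macrophages and activated fibroblasts, Mmp2 (gelatinase A) cuts collagens, Timp1 inhibits matrix metalloproteinases, and Lox (lysyl oxidase) cross-links collagen and elastin. The sinoatrial node, the heart's pacemaker, is embedded in fibrous matrix even in health.

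Levels below are TPM, a length-corrected abundance with the same total in each library, multiplied by 1 factor per library. This scaled TPM is proportional to the normalised counts of 1 fit of all 38 libraries, which served to compare regions. The tests of failing against healthy hearts normalised the libraries of each region alone, so their scale can differ from the levels shown. The factors ran from 0.642 to 1.31 outside the left ventricle and from 1.13 to 3.92 within it, so left ventricle values are also given as deposited TPM. Library totals ran from 17406473 to 27355777 estimated counts. Libraries are named by their titles, which end in a 4-digit code, and values are listed in the order of the codes: iSAN0409, iSAN0506, iSAN0507 and iSAN0508 for failing inferior nodes and SB_0920, SB_0921, SB_1001 and SB_1002 for healthy ones. Titles of superior nodes begin with sSAN in failing and with ST in healthy hearts, and the other regions keep 1 prefix in both states (LV_1001 and LV_1002 are the healthy left ventricles). Whether libraries with the same code come from 1 animal is not stated, and if they are not from separate animals within a group, p-values cover technical spread alone. Failing hearts have 4 codes and healthy hearts another 4, and where these stand for batches, batch and health state cannot be told apart. Because the tissue is bulk, fewer cells of a type and less RNA per cell cannot be told apart. Markers of cell types and regions were not used here, because no table pairs the files' IDs with names.

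Ccn2, Spp1, Timp1 and Lox rose in failing hearts in both parts of the node and in both atria. Tgfb1 rose in 3 of these 4 regions, and Mmp2 in none. Of the 30 tests of 6 genes in 5 regions, 19 passed an adjusted p of 0.05 (edgeR quasi-likelihood test, Benjamini-Hochberg over all genes of the region), all 19 with the higher level in failing hearts. The members that rose numbered 4 of 6 in the superior node and 5 of 6 in the inferior node and in either atrium. Of all genes tested, 19.5%, 8.92%, 24.5% and 24.3% rose in inferior nodes, superior nodes, right atria and left atria, in that order, and 38.5%, 13.5%, 47.5% and 48.2% changed in either direction. In the left ventricle 0 of 6 members passed, against 0% of all 13670 genes tested. At an unadjusted p under 0.05, 3 of 6 members passed there, against 11% of all genes, and DESeq2 called 2 of the 5 members for which it gave an adjusted p, against 2.61% of all genes with one. The median log2 change of the 6 genes was 2.01, 2.17, 1.97, 2.24 and 1.98 from the inferior node to the left ventricle, while the median over all genes lay between -0.0056 and 0.0275. All 4 of Ccn2, Spp1, Timp1 and Lox rose in each of the first 4 regions, as did 6.17% of all genes tested in them. The log2 change was above 0 in 29 of the 30 tests, and 5 members were above 0 in all 5 regions, against 29.9% of all genes.

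**Figure D1:**
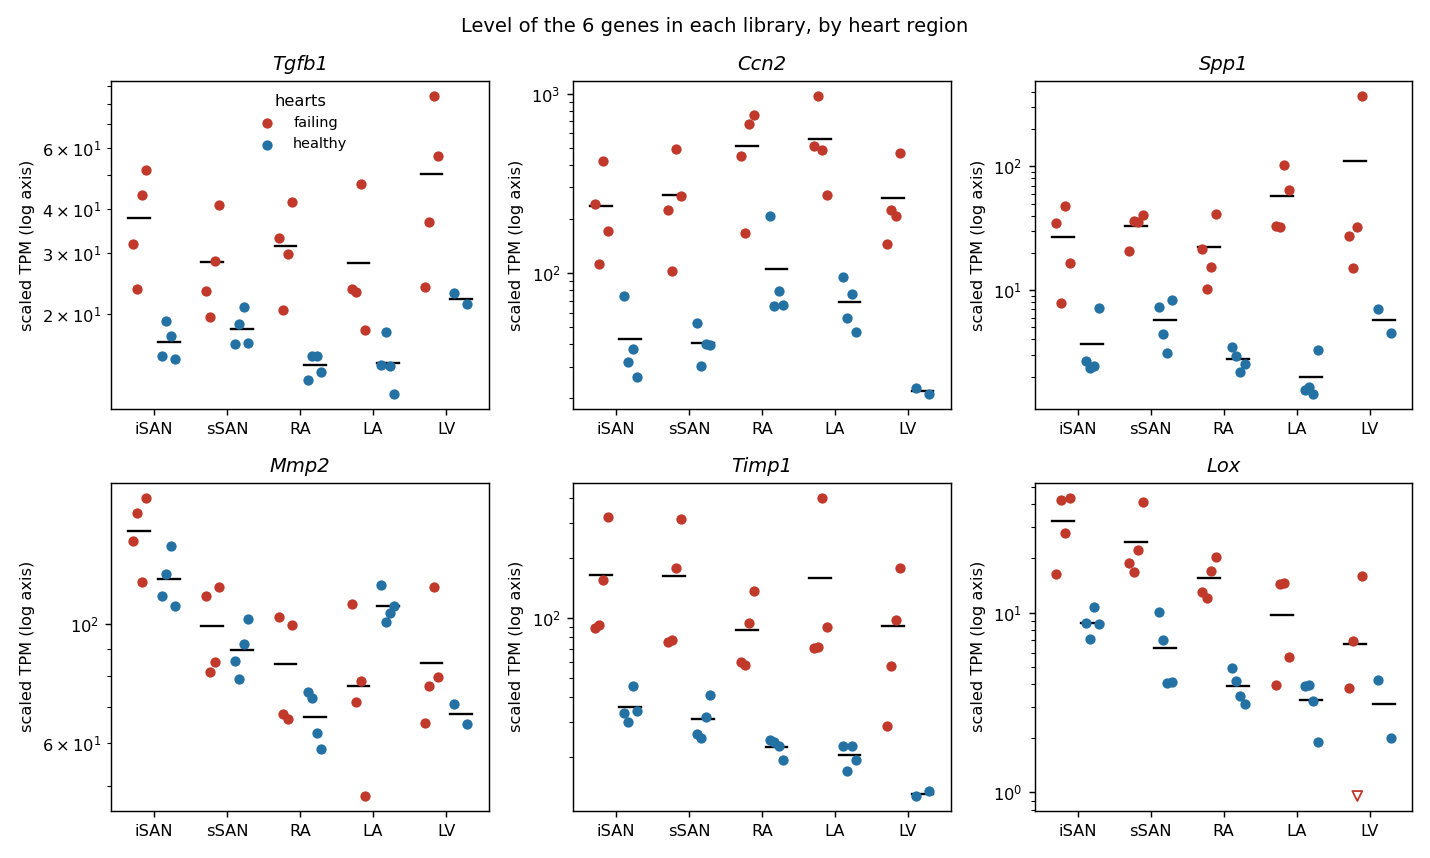
Scaled TPM (log axis) of each of the 6 genes in every library, by region, with failing hearts in red left of healthy hearts in blue; black lines are group means and the open triangle marks a library in which Lox is listed at 0. Failing points stand above all healthy points of the same region in 21 of the 30 pairs of gene and region, and Mmp2 overlaps in all 5 regions.

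The promoters of members that rose together are shown because their letters can be set beside those changes. RefSeq sequence of build GRCr8 was at hand for 4 of the 6 genes (Tgfb1, Ccn2, Spp1 and Timp1), and the 250 bases before each start were searched on both strands. The motifs were the Smad box CAGAC, the Tead motif GGAATG, the AP-1 motif TGANTCA and the TATA box TATAAA. They occurred in 42.9%, 12.1%, 6.34% and 12.9% of the 33469 promoters of the same length, in that order. The Ccn2 window (chr1:22624615-22624864, minus strand) held 3 copies of the Tead motif, 1 Smad box and 1 TATA box. The Spp1 window (chr14:5619805-5620054, minus strand) held 1 Smad box, here read on the opposite strand as GTCTG, and 1 match to the TATA box letters. That match began at base 47 of the 250, far from the start, whereas the one in Ccn2 began at base 220. The Timp1 window (chrX:3771123-3771372, minus strand) held 1 Tead motif. The Tgfb1 window (chr1:90324062-90324311, plus strand) held 0 copies of these letters, and a match or its absence is a description of the letters alone. Capitals below mark the motifs, 5′ to 3′.
Ccn2: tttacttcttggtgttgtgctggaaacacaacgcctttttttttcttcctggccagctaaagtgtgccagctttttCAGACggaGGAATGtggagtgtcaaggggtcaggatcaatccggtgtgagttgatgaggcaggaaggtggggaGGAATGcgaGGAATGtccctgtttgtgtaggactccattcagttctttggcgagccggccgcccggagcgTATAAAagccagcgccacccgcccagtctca
Spp1: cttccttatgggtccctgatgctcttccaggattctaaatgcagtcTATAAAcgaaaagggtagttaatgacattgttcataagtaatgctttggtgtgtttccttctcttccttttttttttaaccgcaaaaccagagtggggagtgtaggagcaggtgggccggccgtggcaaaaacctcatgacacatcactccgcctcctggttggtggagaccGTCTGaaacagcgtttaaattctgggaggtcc
Timp1: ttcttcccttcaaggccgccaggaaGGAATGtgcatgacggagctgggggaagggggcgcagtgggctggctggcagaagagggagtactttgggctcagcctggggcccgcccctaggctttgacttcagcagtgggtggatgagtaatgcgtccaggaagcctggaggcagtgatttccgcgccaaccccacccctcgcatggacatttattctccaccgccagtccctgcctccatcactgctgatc

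Tgfb1, the ligand, rose 2.22-fold in the inferior node, 2.20-fold in the right atrium and 1.91-fold in the left atrium of failing hearts. In the inferior node it had 31.8, 23.7, 43.9 and 51.9 scaled TPM in failing hearts, against 15.2, 19.1, 17.3 and 14.9 in healthy hearts. All 4 failing libraries stood above all 4 healthy ones, and the log2 change was 1.15 (SE 0.23, edgeR adjusted p = 0.0054). The right atrium held 33.0, 20.6, 29.7 and 41.9 scaled TPM in failing hearts and 13.0, 15.2, 15.2 and 13.7 in healthy hearts. Again the groups did not overlap (log2 change 1.14, SE 0.18, edgeR adjusted p = 0.0012). Left atria of failing hearts had 23.6, 23.2, 47.2 and 18.0 scaled TPM, against 14.3, 17.8, 14.2 and 11.8 in healthy hearts. The lowest failing library lay just above the highest healthy one, and on deposited TPM the 2 groups overlapped (18.2 to 47.0 in failing and 13.5 to 22.3 in healthy hearts). That log2 change of 0.93 (SE 0.28, edgeR adjusted p = 0.021) lost its call without the healthy library LA_0920, LA_1001 or LA_1002, with adjusted p-values of 0.051, 0.051 and 0.06, and with limma on log2(TPM + 1), with an adjusted p of 0.077.

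In the superior node Tgfb1 did not pass. Failing hearts had 23.3, 19.7, 28.5 and 41.2 scaled TPM and healthy hearts 16.4, 18.8, 21.0 and 16.5. Of the 4 failing libraries, 3 stood above the highest healthy one, and the log2 change was 0.63 (SE 0.22, edgeR adjusted p = 0.081). Without the lowest failing library, sSAN0506, it was 0.77 with an adjusted p of 0.04. The left ventricle held 24.0, 36.9, 84.5 and 57.0 scaled TPM of Tgfb1 in failing hearts, against 23.0 and 21.4 in healthy hearts (log2 change 1.18, SE 0.50, edgeR adjusted p = 0.45). On this scale the groups did not overlap. As deposited TPM the values were 17, 16.6, 21.6 and 50.5 in failing and 16.9 and 14.3 in healthy hearts, and the groups overlapped.

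Ccn2, the matricellular target gene, rose in all 4 node and atrial regions, from 4.91-fold in the right atrium to 8.04-fold in the left atrium. In the inferior node failing hearts had 241, 112, 422 and 172 scaled TPM and healthy hearts 74.2, 31.9, 37.8 and 26.2. The superior node held 225, 102, 491 and 269 scaled TPM in failing hearts, against 52.2, 30.1, 40.2 and 39.6 in healthy hearts. In both parts of the node the groups stood apart, and iSAN0507 and sSAN0507 were the highest of the failing libraries. The log2 change was 2.44 in the inferior node (SE 0.46, edgeR adjusted p = 0.0047) and 2.74 in the superior node (SE 0.42, edgeR adjusted p = 0.011). Left atria of failing hearts had 509, 972, 485 and 271 scaled TPM and those of healthy hearts 94.9, 55.8, 76.2 and 47.0. The groups were again separate (log2 change 3.01, SE 0.38, edgeR adjusted p = 0.00041), and LA_0506 was the highest failing library although iSAN0506 and sSAN0506 were the lowest.

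In right atria Ccn2 rose but its groups overlapped. It had 451, 167, 674 and 761 scaled TPM in failing right atria, against 208, 65.6, 79.1 and 66.0 in healthy ones. The healthy library RA_0920 lay above the failing library RA_0506 (log2 change 2.30, SE 0.51, edgeR adjusted p = 0.0054). Left ventricles of failing hearts had 145, 223, 209 and 464 scaled TPM and those of healthy hearts 22.7 and 21.0, an 11.9-fold difference that did not pass (log2 change 3.57, SE 0.58, edgeR adjusted p = 0.23; unadjusted p = 0.00044). As deposited TPM the left ventricles had 102, 100, 53.3 and 411 in failing and 16.6 and 14.1 in healthy hearts, and the groups did not overlap on either scale. By level, Ccn2 lay above 98.2% to 99.3% of all genes in the 5 failing groups and above 86% to 97.2% in the 5 healthy groups.

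Spp1, osteopontin, had the lowest mean of the 6 genes in 4 of the 5 healthy groups and showed the largest fold changes of the 6 in 3 of the 4 regions with calls. Left atria of failing hearts had 32.7, 32.5, 103 and 63.9 scaled TPM, against 1.55, 1.66, 1.44 and 3.27 in healthy hearts. All failing libraries stood far above all healthy ones, and the change was 29.1-fold (log2 change 4.86, SE 0.47, edgeR adjusted p = 0.00015), the 27th highest log2 change of 14217 genes. In the right atrium Spp1 had 21.6, 10.2, 15.4 and 41.3 scaled TPM in failing hearts and 3.45, 2.94, 2.17 and 2.55 in healthy hearts. Those groups did not overlap (7.93-fold, log2 change 2.99, SE 0.40, edgeR adjusted p = 0.00057).

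In the inferior node Spp1 had 34.8, 7.93, 48.1 and 16.7 scaled TPM in failing hearts, against 2.69, 2.34, 2.43 and 7.17 in healthy hearts. The lowest failing library, iSAN0506, and the highest healthy one, SB_1002, came close without crossing (7.17-fold, log2 change 2.84, SE 0.60, edgeR adjusted p = 0.0071). The superior node held 20.6, 35.9, 35.8 and 40.5 scaled TPM in failing hearts and 7.25, 4.42, 3.11 and 8.28 in healthy hearts. The groups were separate (5.70-fold, log2 change 2.51, SE 0.32, edgeR adjusted p = 0.0074). For the left ventricle 1 library decided the size. Failing hearts had 27.2, 15, 32.5 and 371 scaled TPM, against 7.03 and 4.50 in healthy hearts (log2 change 4.29, SE 1.61, edgeR adjusted p = 0.42). Without LV_0508 the log2 change was 2.11. As deposited TPM the values were 19.2, 6.72, 8.30 and 329 in failing and 5.15 and 3.02 in healthy hearts.

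**Figure D2:**
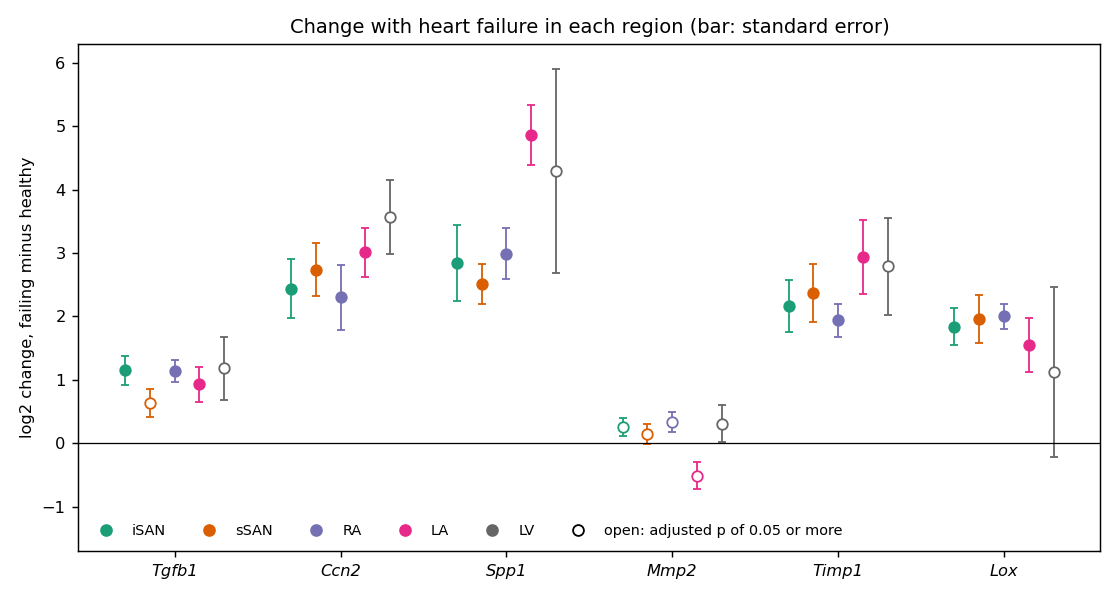
Log2 change (failing minus healthy) of each gene in each region, with the standard error as bar; filled points have an edgeR adjusted p under 0.05 and open points do not. Mmp2 lies between -0.51 and 0.33 with open points in all 5 regions, while Spp1 reaches 4.86 in the left atrium.

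Mmp2, the protease, was abundant in every group and passed in none of the regions. In the inferior node it had 143, 161, 120 and 172 scaled TPM in failing hearts, against 113, 124, 140 and 108 in healthy hearts. Of the failing libraries 3 exceeded the highest healthy one (log2 change 0.26, SE 0.14, edgeR adjusted p = 0.18). Superior nodes held 113, 81.5, 84.8 and 117 scaled TPM in failing and 85.4, 79.0, 91.9 and 102 in healthy hearts, which overlapped widely (log2 change 0.14, SE 0.16, edgeR adjusted p = 0.58). Right atria had 103, 68.1, 66.5 and 99.4 scaled TPM in failing hearts and 74.8, 72.8, 62.7 and 58.5 in healthy hearts, with 2 failing libraries above the healthy range (log2 change 0.33, SE 0.16, edgeR adjusted p = 0.12).

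The left atrium was the 1 region with a lower mean of Mmp2 in failing hearts. Failing left atria had 109, 71.4, 78.4 and 47.8 scaled TPM, against 118, 101, 105 and 108 in healthy ones. Of the failing libraries only LA_0409 reached the healthy range, and the log2 change of -0.51 (SE 0.21, edgeR adjusted p = 0.071) passed without that library (-0.72, adjusted p = 0.0075). On deposited TPM the groups did not overlap, with 48.5 to 103 in failing and 123 to 143 in healthy left atria. It also passed in 5 of 7 other ways of fitting, with adjusted p-values of 0.041 in a fit of all 38 libraries, 0.042 with DESeq2 and 0.0094 with limma on log2(TPM + 1). Left ventricles had 65.4, 76.7, 117 and 79.7 scaled TPM of Mmp2 in failing and 70.8 and 65.0 in healthy hearts (log2 change 0.31, SE 0.29, edgeR adjusted p = 0.64). As deposited TPM failing left ventricles had 46.2, 34.5, 29.8 and 70.6 and healthy ones 51.9 and 43.6, so the sign of the difference in the left ventricle depended on the scaling.

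Timp1, the inhibitor, rose between 3.85-fold and 7.65-fold in the 4 node and atrial regions. In the inferior node failing hearts had 89.4, 92.5, 155 and 322 scaled TPM, against 33.3, 30.2, 45.8 and 34 in healthy hearts. Superior nodes had 76.1, 77.5, 179 and 314 scaled TPM in failing and 26.2, 25.0, 31.9 and 41.0 in healthy hearts. In both parts of the node the groups were separate, with iSAN0508 and sSAN0508 highest. On scaled TPM the order of the failing libraries was the same in both parts. On deposited TPM it was not, since sSAN0506 (74.0) lay below sSAN0409 (90.1). The log2 change was 2.17 in the inferior node (SE 0.41, edgeR adjusted p = 0.0048) and 2.37 in the superior node (SE 0.45, edgeR adjusted p = 0.018), and without the healthy library ST_0920 the change in the superior node had an adjusted p of 0.057. Right atria had 59.9, 57.9, 94.8 and 136 scaled TPM in failing and 24.5, 23.9, 22.8 and 19.4 in healthy hearts, also without overlap (log2 change 1.94, SE 0.26, edgeR adjusted p = 0.00055).

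Left atria of failing hearts had 70.7, 71.4, 401 and 89.8 scaled TPM of Timp1, against 22.7, 17.1, 22.9 and 19.3 in healthy hearts. LA_0507 stood apart among the failing ones. The log2 change was 2.94 (SE 0.58, edgeR adjusted p = 0.0031) with it and 1.91 (adjusted p = 3.1e-05) without it. Left ventricles had 28.8, 57.6, 97.4 and 179 scaled TPM in failing and 12.8 and 13.5 in healthy hearts (log2 change 2.79, SE 0.76, edgeR adjusted p = 0.39; unadjusted p = 0.0077). As deposited TPM the values were 20.3, 25.9, 24.8 and 159 in failing and 9.37 and 9.04 in healthy hearts, and the groups did not overlap on either scale.

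Lox, the cross-linking enzyme, rose between 2.93-fold and 4.00-fold in the same 4 regions. In the inferior node it had 16.3, 42.1, 27.9 and 43.6 scaled TPM in failing hearts and 8.74, 7.13, 10.7 and 8.65 in healthy hearts. The superior node held 18.8, 16.8, 22.4 and 41.2 scaled TPM in failing hearts, against 10.1, 7.07, 4.08 and 4.09 in healthy hearts. Neither pair of groups overlapped, and the log2 changes were 1.84 (SE 0.29, edgeR adjusted p = 0.0024) in the inferior and 1.96 (SE 0.38, edgeR adjusted p = 0.018) in the superior node. Right atria had 13.0, 12.1, 17 and 20.4 scaled TPM in failing and 4.89, 4.18, 3.44 and 3.12 in healthy hearts. This was the tightest of the changes of Lox (log2 change 2.0, SE 0.20, edgeR adjusted p = 0.00022).

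Left atria of failing hearts split, with 3.94, 14.4, 14.7 and 5.69 scaled TPM of Lox against 3.93, 3.98, 3.24 and 1.91 in healthy hearts. LA_0409 lay inside the healthy range (log2 change 1.55, SE 0.43, edgeR adjusted p = 0.015), and with limma on log2(TPM + 1) the adjusted p was 0.064. Left ventricles had 3.82, 6.96, 0 and 16.0 scaled TPM of Lox in failing hearts and 4.23 and 2.0 in healthy hearts. LV_0507 held 0 of 19035048 estimated counts for Lox, which allows up to 0.158 CPM (3 counts of the total, counting error only). The log2 change of 1.12 (SE 1.34, edgeR adjusted p = 0.71) was 0.21 without the failing library LV_0508 and 1.76 without the healthy library LV_1001. As deposited TPM failing left ventricles had 2.70, 3.13, 0 and 14.2 and healthy ones 3.10 and 1.34.

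Failing groups did not overlap healthy ones, with the higher level in failing hearts, in 21 of the 30 comparisons on scaled TPM, and the reverse occurred in 0. Of all genes tested, 17.8%, 12.6%, 22.1%, 22.5% and 15.7% were separate with the higher level in failing hearts from the inferior node to the left ventricle, and 19.3%, 8.76%, 22.3%, 23.6% and 16.3% with the lower level. On deposited TPM 20 were higher without overlap and 1 lower, Mmp2 in the left atrium. The shares of all genes above were counted over the genes tested in each region, on libraries normalised within that region alone. Scaled TPM rests on the fit of all 38 libraries, so the member counts and these shares are not on the same scale. Near ties between groups can fall differently on each, and the shares are only an approximate background. They were not counted on deposited TPM. On unscaled TPM the median log2 change of all genes in the left atrium was itself below 0 (-0.143).

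**Figure D3:**
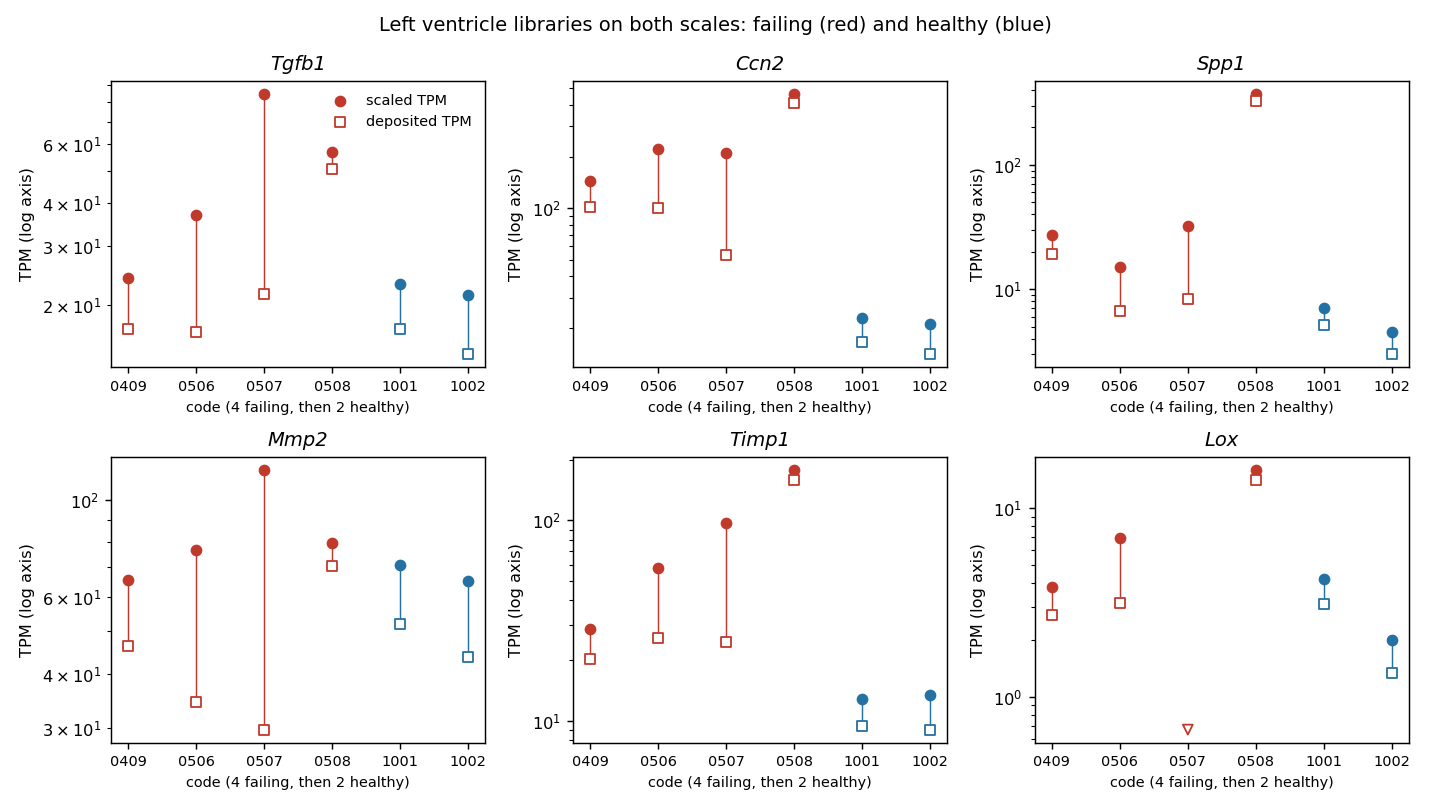
Left ventricle libraries on 2 scales (TPM, log axis), with the 4 failing libraries in red left of the 2 healthy ones in blue; filled circles are scaled TPM, open squares deposited TPM, and the open triangle marks Lox listed at 0. LV_0507 moves most between the scales, for Tgfb1 between 84.5 scaled and 21.6 deposited TPM.

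The left ventricle stood apart in its libraries. The 10 most abundant genes took 33.4%, 46.6%, 61.3% and 28.1% of the counts in failing and 36.5% and 36.0% in healthy left ventricles, and the scaling factors were 1.42, 2.22, 3.92 and 1.13 in failing against 1.36 and 1.49 in healthy hearts. The common biological coefficient of variation was 0.401 there, against 0.183 to 0.255 in the other regions. On unscaled TPM the median log2 change of all genes moved to 0.0963, 0.118, -0.192, -0.143 and -0.256 from the inferior node to the left ventricle, and values on that scale are to be read against these medians. The part of these library differences in the values of the 6 genes was not tested. A fit of all 38 libraries, which shares 1 estimate of the spread between regions, called 4 of 6 members in the left ventricle, against 19.1% of all genes. These were Tgfb1 (adjusted p = 0.028), Ccn2 (0.0017), Spp1 (0.0051) and Timp1 (0.0095), all higher in failing hearts.

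Set against the protease, the inhibitor was higher in failing hearts in every region, within each library and therefore free of the scaling between libraries. The ratio of Timp1 TPM to Mmp2 TPM was 0.628, 0.576, 1.29 and 1.88 in failing inferior nodes, against 0.296, 0.244, 0.327 and 0.317 in healthy ones. In superior nodes it was 0.672, 0.951, 2.11 and 2.68 in failing and 0.307, 0.316, 0.347 and 0.402 in healthy hearts. Healthy hearts thus held less Timp1 than Mmp2 in every node library, and failing hearts more in 4 of 8. Right atria had ratios of 0.584, 0.850, 1.43 and 1.37 in failing and 0.327, 0.328, 0.363 and 0.332 in healthy hearts. Left atria had 0.646, 1.00, 5.11 and 1.88 in failing and 0.192, 0.169, 0.219 and 0.179 in healthy hearts. The left ventricle held 0.440, 0.751, 0.834 and 2.25 in failing and 0.180 and 0.207 in healthy hearts. No failing library fell within the healthy range of its region in any of the 5 regions.

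The mean log2 ratio was higher in failing hearts by 1.72 in inferior nodes, 2.01 in superior nodes, 1.56 in right atria and 3.06 in left atria. Each of these had an exact two-sided permutation p of 0.0286, the smallest that 4 against 4 libraries allow, and an adjusted p of 0.0358 over the 5 regions. For left ventricles the difference was 2.20, with an exact permutation p of 0.133, the smallest that 4 against 2 allow. The ratio rests on the same values of Timp1 and Mmp2 as the tests above and was chosen with earlier results known. Its p-values are therefore no independent support. The spread was wider in failing hearts, with an SD of the log2 ratio of 0.61 to 1.29 in failing and 0.07 to 0.19 in healthy groups.

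**Figure D4:**
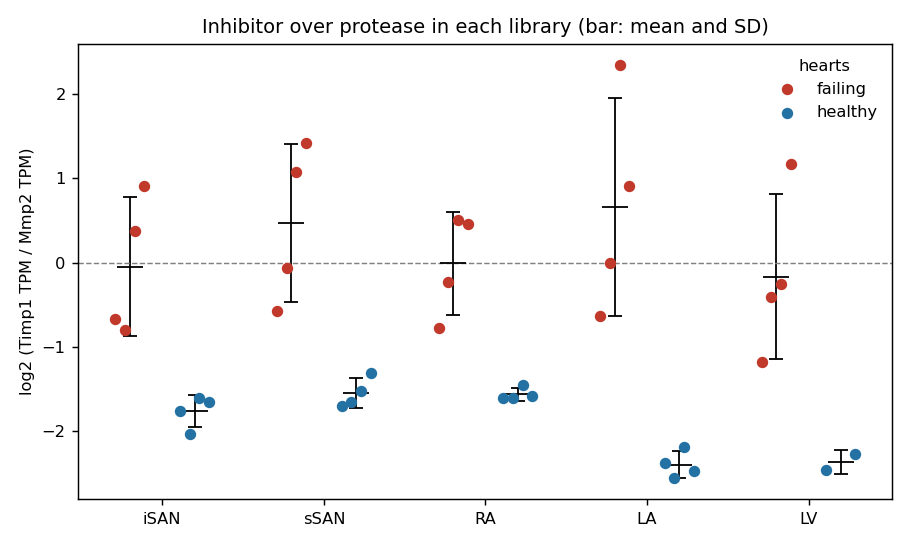
Log2 of the Timp1 to Mmp2 TPM ratio in every library, by region, with failing hearts in red left of healthy hearts in blue; horizontal ticks are means and bars are SDs. All healthy libraries lie at or below a ratio of 0.402 and all failing libraries at or above 0.440.

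Whether the change with heart failure differed between regions was asked for each of the 10 pairs of regions in 1 fit of all 38 libraries. Of the 60 tests of 6 genes, 0 passed (edgeR, Benjamini-Hochberg), while 0.211% of the tests of all genes passed in the same pairs. At an unadjusted p under 0.05 there were 5 of 60, against 8.77% of the tests of all genes, and 4 of the 5 were of Mmp2 in pairs with the left atrium. The log2 change of Mmp2 was higher in the inferior node than in the left atrium by 0.79 (SE 0.27, unadjusted p = 0.0063, edgeR adjusted p = 0.22) and higher in the right atrium than in the left by 0.82 (SE 0.27, unadjusted p = 0.0048, edgeR adjusted p = 0.42). The fifth was Spp1, whose log2 change was lower in the superior node than in the left atrium (difference -2.35, SE 0.97, unadjusted p = 0.021, edgeR adjusted p = 0.35). The 29.1-fold change in the left atrium and the 5.70-fold change in the superior node were therefore not shown to differ at the adjusted threshold, and a test that misses it does not show that the changes are alike.

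The inferior node had the highest mean of Mmp2 and of Lox in both states, on scaled and on deposited TPM. In failing hearts Mmp2 averaged 149 ± 22.6 scaled TPM in inferior nodes, 99.1 ± 18.6 in superior nodes, 84.6 ± 22.2 in left ventricles, 84.2 ± 19.5 in right atria and 76.7 ± 25.4 in left atria (SD, n = 4 each). In healthy hearts it averaged 121 ± 14.5 in inferior nodes, 108 ± 7.46 in left atria, 89.6 ± 9.84 in superior nodes, 67.9 ± 4.09 in left ventricles and 67.2 ± 7.85 in right atria (SD, n = 4, and 2 in the left ventricle, here and below). On scaled TPM the left atrium thus ranked last for Mmp2 in failing hearts and next to the inferior node in healthy hearts, while on deposited TPM the left ventricle was last in failing hearts (45.3, against 78.0 in left atria). From the inferior node through the superior node, right atrium and left atrium to the left ventricle, Lox averaged 32.5 ± 12.9, 24.8 ± 11.2, 15.6 ± 3.86, 9.69 ± 5.67 and 6.69 ± 6.81 scaled TPM in failing hearts. In healthy hearts the same order held, with 8.82 ± 1.49, 6.35 ± 2.90, 3.91 ± 0.789, 3.26 ± 0.962 and 3.11 ± 1.58. By mean, Lox therefore ran from node to atrium to ventricle in both states. In the fit of all 38 libraries, 3 of the 10 pairs of regions passed for Lox in failing hearts. In healthy hearts 0 of 10 passed (lowest edgeR adjusted p = 0.11). With the code as a block 1 healthy pair passed, and with only the libraries of each pair 3 did.

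The other 4 members were ordered differently. Timp1 averaged 165 ± 109 in failing inferior nodes, 162 ± 112 in superior nodes, 158 ± 162 in left atria, 90.8 ± 65.4 in left ventricles and 87.3 ± 36.9 in right atria, on the scaled TPM scale. In healthy hearts it averaged 35.8 ± 6.86 in inferior nodes, 31.0 ± 7.30 in superior nodes, 22.6 ± 2.26 in right atria, 20.5 ± 2.80 in left atria and 13.1 ± 0.495 in left ventricles. By mean, the node came first in both states. In the fit of all 38 libraries, 0 of the 10 pairs of regions passed for Timp1 in either state (edgeR). With the code as a block, 3 passed in failing and 2 in healthy hearts. With only the libraries of each pair, 0 passed in failing and 7 in healthy hearts. Ccn2 was highest in the atria in both states, at 559 ± 295 scaled TPM in left and 513 ± 265 in right atria of failing hearts, and 68.5 ± 21.4 in left and 105 ± 69.4 in right atria of healthy hearts. Its other means were 272 ± 162 in superior nodes, 260 ± 140 in left ventricles and 237 ± 134 in inferior nodes of failing hearts, and 40.5 ± 9.04, 21.9 ± 1.17 and 42.5 ± 21.6 in the same regions of healthy hearts. Spp1 averaged 111 ± 173 scaled TPM in left ventricles, 57.9 ± 33.2 in left atria, 33.2 ± 8.66 in superior nodes, 26.9 ± 18.0 in inferior nodes and 22.1 ± 13.6 in right atria of failing hearts. In healthy hearts the left atrium was instead lowest, at 1.98 ± 0.866, after 2.78 ± 0.551 in right atria, 3.66 ± 2.34 in inferior nodes, 5.76 ± 1.79 in left ventricles and 5.77 ± 2.41 in superior nodes. Tgfb1 averaged 50.6 ± 26.4 scaled TPM in failing left ventricles, 37.8 ± 12.5 in inferior nodes, 31.3 ± 8.82 in right atria, 28.2 ± 9.41 in superior nodes and 28 ± 13.0 in left atria. In healthy hearts it averaged 22.2 ± 1.16, 16.6 ± 1.96, 14.2 ± 1.11, 18.2 ± 2.17 and 14.5 ± 2.48 in the same regions. The left ventricle was first for Tgfb1 on scaled TPM and last on deposited TPM, where it averaged 26.4 in failing and 15.6 in healthy hearts.

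In the fit of all 38 libraries, 0 of the 48 steps between neighbours in these orders passed an adjusted p of 0.05 (edgeR). Some steps passed in other edgeR fits. With only the libraries of each pair, Ccn2 passed from superior node to left ventricle of healthy hearts (adjusted p = 0.023). Timp1 did so there from left atrium to left ventricle (adjusted p = 0.008). With the code as a block, that step of Timp1 passed in failing hearts (adjusted p = 0.036). Over all pairs in the fit of all 38 libraries, 11 of 60 passed within failing hearts, where 21.2% of the tests of all genes passed in the same pairs. Within healthy hearts 4 of 60 passed, against 14.8% of the tests of all genes. With the code as a block these counts were 17 in failing and 7 in healthy hearts, against 25.2% and 17.7% of the tests of all genes. With only the libraries of each pair in the fit they were 5 in failing and 27 in healthy hearts, against 10.6% and 24.3%. Mmp2 was higher in the inferior node than in the right atrium of failing hearts by 0.82 on the log2 scale (SE 0.19, edgeR adjusted p = 0.0025), and of healthy hearts by 0.85 (SE 0.19, edgeR adjusted p = 0.0039). It was also higher there than in the left ventricle, by 0.81 in failing hearts (SE 0.19, edgeR adjusted p = 0.00081) and 0.83 in healthy hearts (SE 0.24, edgeR adjusted p = 0.0094), the healthy call being lost without LV_1001 (adjusted p = 0.052) or LV_1002 (adjusted p = 0.12). Within failing hearts it was higher than in the left atrium by 0.95 (SE 0.19, edgeR adjusted p = 0.00063).

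Lox was higher in failing inferior nodes than in failing left ventricles by 2.23 on the log2 scale (SE 0.54, edgeR adjusted p = 0.0011) and in failing superior nodes by 1.84 (SE 0.54, edgeR adjusted p = 0.0068). Without LV_0508 these values were 3.10 and 2.71, and with only the libraries of each pair in the fit neither passed (adjusted p = 0.094 and 0.18). Lox was also higher in failing inferior nodes than in left atria by 1.74 (SE 0.53, edgeR adjusted p = 0.021), a call lost without any 1 of iSAN0506, iSAN0508, LA_0409 and LA_0508 (adjusted p 0.064 to 0.083). Spp1 was lower in the failing inferior node, superior node and right atrium than in the left ventricle, with log2 differences of -2.06, -1.75 and -2.34 (edgeR adjusted p = 0.012, 0.034 and 0.0082). Without LV_0508 these were 0.11, 0.42 and -0.17 and did not pass, and with only the libraries of each pair in the fit none of them passed (adjusted p = 0.17, 0.23 and 0.18). With the code as a block the calls of Spp1 were lost for the inferior node (-1.34, adjusted p = 0.069) and the superior node (-0.93, adjusted p = 0.21). The call for the right atrium was kept there (-1.77, adjusted p = 0.021). The call between superior node and left ventricle was also lost without any 1 failing superior node. Tgfb1 was lower in failing superior nodes and left atria than in left ventricles, with log2 differences of -0.84 and -0.85 (edgeR adjusted p = 0.023 and 0.025). On unscaled TPM the sign turned (0.25 and 0.18), and without LV_0507 the values were -0.47 and -0.48 and did not pass. Both calls were also lost with only the libraries of each pair (adjusted p = 0.17 and 0.24), the first without sSAN0409 or sSAN0506 and the second without LA_0409, LA_0506, LA_0508 or LV_0508. In healthy hearts Ccn2 was higher in the right atrium than in the left ventricle by 2.26 (SE 0.67, edgeR adjusted p = 0.012), and Mmp2 in the left atrium than in the left ventricle by 0.67 (SE 0.24, edgeR adjusted p = 0.044). With only the libraries of the pair the adjusted p for Ccn2 was 0.061. Leaving out either healthy left ventricle ended both calls, as did leaving out any healthy left atrium for Mmp2 and RA_0920 for Ccn2.

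Failing libraries varied more among themselves than healthy ones in all 5 regions for Timp1, Tgfb1 and Mmp2. The coefficient of variation of Timp1 was 42.3% to 102% in failing groups and 3.77% to 23.5% in healthy groups. That of Tgfb1 was 28.2% to 52.1% in failing and 5.25% to 17.1% in healthy groups, and that of Mmp2 15.2% to 33.1% and 6.03% to 12.0%. Healthy groups varied more for Ccn2 in the right atrium (66.2%, against 51.6%). In the superior node they did so for Spp1 (41.7%, against 26.1%) and slightly for Lox (45.6%, against 45.1%). The share of all genes with a wider spread in failing hearts was not counted, and healthy left ventricles have 2 libraries. Some places of failing libraries on scaled TPM followed the codes, and the genes named here are those with 1 code highest or lowest in 4 of the 5 regions. For Timp1, iSAN0508, sSAN0508, RA_0508 and LV_0508 were the highest failing libraries of their regions, while iSAN0409, sSAN0409, LA_0409 and LV_0409 were the lowest. For Lox, the 4 libraries iSAN0508, sSAN0508, RA_0508 and LV_0508 were again the highest. For Spp1, iSAN0506, RA_0506, LA_0506 and LV_0506 were the lowest. Some of these places were near ties, as for Timp1 in iSAN0409 and iSAN0506 (89.4 and 92.5) and in LA_0409 and LA_0506 (70.7 and 71.4). On deposited TPM the lowest were sSAN0506 for Timp1 (74.0, against 90.1 in sSAN0409) and LA_0409 for Spp1 (30.7, against 37.8 in LA_0506). For Lox iSAN0506 was the highest there (65.6, against 60.7 in iSAN0508). No code was highest or lowest in over 3 regions for Tgfb1 and Ccn2, or in over 2 for Mmp2. The share of all genes with 1 code highest or lowest in 4 regions was not counted.

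For 5 of the 6 genes LA_0508 did not lie on the same side as RA_0508. LA_0508 deviated from the mean of failing left atria by -0.52 for Tgfb1, -0.90 for Ccn2, -0.61 for Mmp2, -0.37 for Timp1 and -0.50 for Lox on the log2(scaled TPM + 1) scale. RA_0508, with the same code, deviated from the mean of failing right atria by 0.45, 0.78, 0.27, 0.73 and 0.39 for the same 5 genes. For Spp1 both lay above their means, LA_0508 by 0.31 and RA_0508 by 1.05. RA_0506 was the lowest for Ccn2, as were iSAN0506 and sSAN0506, whereas LA_0506 was the highest. Libraries of 1 code may come from 1 heart, so the 20 failing libraries are not 20 independent points and no correlation between members is given.

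**Figure D5:**
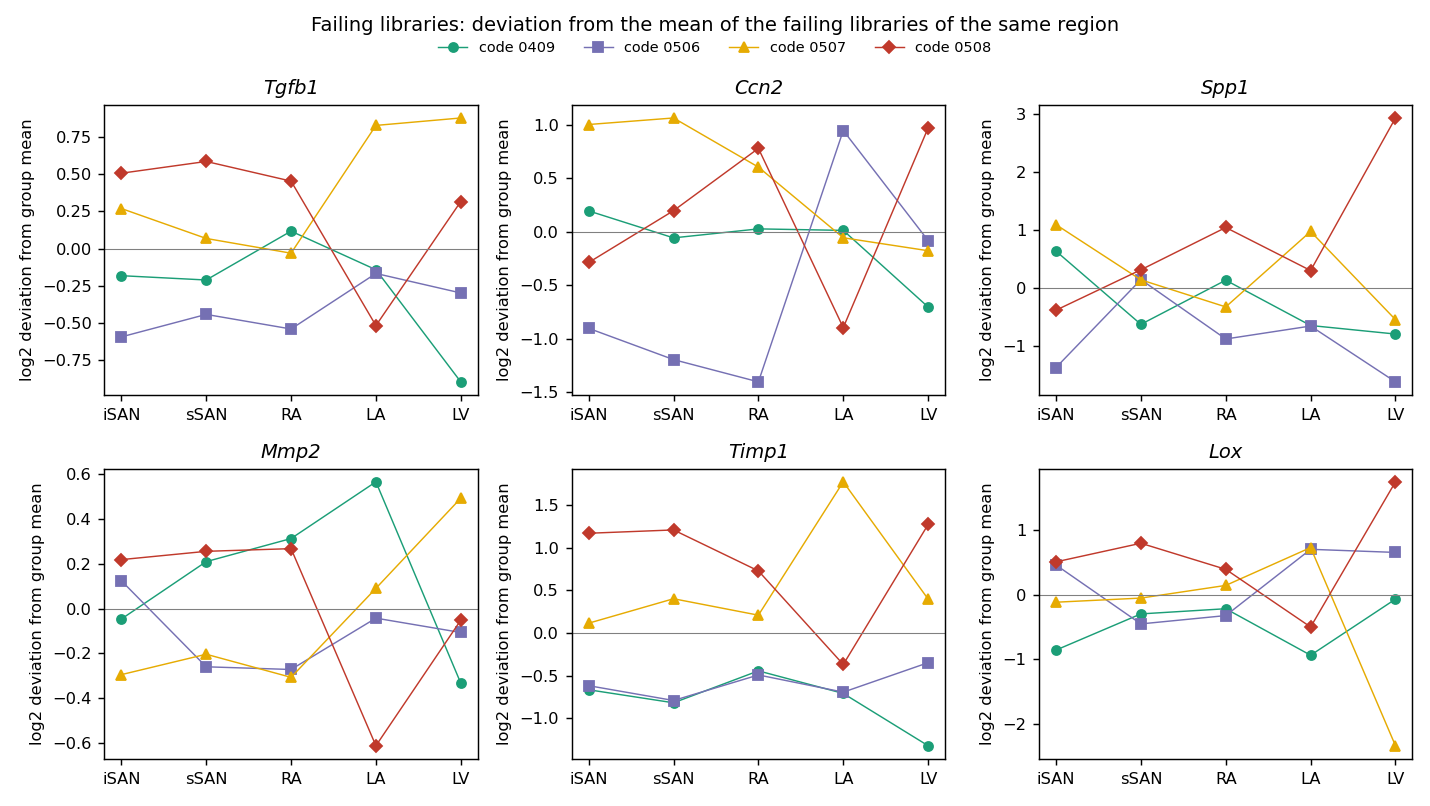
Deviation of each failing library from the mean of the failing libraries of its region, on the log2(scaled TPM + 1) scale, for the 6 genes; lines join libraries with the same code, and regions run from the inferior node to the left ventricle. For Timp1 the libraries iSAN0508, sSAN0508, RA_0508 and LV_0508 lie highest in their regions, and LA_0507 in the left atrium.

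Across the 38 libraries, the gene whose log2 CPM was most like that of a member correlated with it at r = 0.948 for Tgfb1, 0.944 for Ccn2, 0.893 for Spp1, 0.810 for Mmp2, 0.956 for Timp1 and 0.943 for Lox, among 12088 genes. These are descriptions over libraries that share regions, states and codes. The nearest gene of Timp1 was ENSRNOG00000000991 and that of Tgfb1 ENSRNOG00000020393, which no table used here pairs with a name.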

How the data were processed

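Total RNA of 38 rat heart pieces was sequenced from TruSeq libraries, per the labels' protocols. The submitters' processing notes name Trimmomatic 0.39 for trimming and kallisto 0.48.0 for quantification. A genome build, an annotation and the step from transcripts to genes are not stated there. The authors deposited a gene table of estimated counts and a gene table of TPM values for 24057 Ensembl IDs. Deposited transcript tables were not used, because the files do not pair transcripts with genes. In the 13474 genes above 0 in every library, estimated count divided by TPM factored into 1 term per gene and 1 per library (largest log deviation 9.2e-15), so the authors' estimated counts carry a length scaling.

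Estimated counts were rounded and tested with edgeR 4.0.16 in R 4.3.3 (robust quasi-likelihood fit, TMM normalisation, count minimum 10 and total minimum 15, Benjamini-Hochberg over all genes, threshold 0.05). Each region's failing and healthy libraries were fitted alone. Differences between regions, and of changes between regions, came from 1 fit of all 38 libraries with 15770 genes. Scaled TPM is TPM times a library factor with geometric mean 1 that puts it in proportion to the TMM-normalised count of the fit of all 38 libraries. Scripts were tested on simulated data. Likeness between genes is Pearson's r of log2 CPM (prior count 2, mean of at least 1).

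Libraries with the same code deviated together (every correlation across genes over 0.1, with at least 3 pairs) in failing iSAN with sSAN, iSAN with RA, sSAN with RA, sSAN with LV and RA with LV. In healthy hearts they did so in iSAN with RA, iSAN with LA, sSAN with RA, sSAN with LA and RA with LA. The other pairs of regions did not meet this rule. Among them were all failing pairs with LA (lowest r from -0.096 to 0.059) and healthy iSAN with sSAN (lowest r -0.011). Correlations between libraries with different codes are not given for comparison. The code lies within health state and could not be a block for failing against healthy hearts. Alternatives were DESeq2 1.42.0 and its size factors, limma 3.58.1 on log2(TPM + 1), log2(TPM + 0.1) and scaled TPM, no count filter, other sets of libraries and leaving out each library.

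The reference table of GRCr8 matched 0 of the Ensembl IDs, so the pathway and cell type lists chosen by symbol were not applied, and only IDs of the nearest genes are given. All 6 members were to be named in every comparison. The members, lists and the Timp1 to Mmp2 ratio were chosen with earlier results of these data known, and the scaled TPM display, the overlap counts and the places by code were added after the values were seen.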

Additional observations from a re-analysis of the deposited data

Results flagged for a closer look

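In 6 of 63 groups of 4 libraries the highest or lowest library stood far from the others, with a gap to its neighbour over the whole range above Dixon's critical value. For independent, normally distributed values chance gives about 1 such group in 20. Gene levels were taken without logs and the groups share libraries, so that rate is no benchmark here. Spp1 was at 371 scaled TPM in the failing library LV_0508, with the other 3 between 15 and 32.5. Timp1 was at 401 scaled TPM in the failing library LA_0507, against 70.7 to 89.8 in the others. Ccn2 was at 208 scaled TPM in the healthy library RA_0920, with the other 3 between 65.6 and 79.1. Spp1 was at 7.17 scaled TPM in the healthy library SB_1002 and at 3.27 in the healthy library LA_1002, which share a code. The log2 ratio of Timp1 to Mmp2 in the healthy library RA_1001 was -1.46, in a group with an SD of 0.07.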

How the results depend on the processing

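Of the changes of the 6 genes with heart failure, 190 values under other settings kept their direction and side of the threshold, 11 newly passed, 4 no longer passed and 3 turned their sign. With 1 library left out, 222 kept both, 2 newly passed and 4 no longer passed. The sign turned for Mmp2 in the left ventricle with limma on log2(TPM + 1) and log2(TPM + 0.1) (-0.15 in both) and for Lox there with log2(TPM + 0.1) (-0.18). The cause was not tested. Members called in the left ventricle numbered 0, against 4 when all 38 libraries shared a fit and 2 with DESeq2. DESeq2 gave no adjusted p for Timp1 in the left atrium and Spp1 in the left ventricle, so the 2 are of 5 members.

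Calls between regions of failing hearts numbered 11, against 5 with only the groups of each pair, 17 with the code as a replicate block, 18 with limma on log2(TPM + 1) and 17 on log2(TPM + 0.1). In healthy hearts they numbered 4, against 27, 7, 10 and 11 in the same settings and 7 with DESeq2, and 1 to 7 with 1 library left out. The replicate block left the 60 tests of differing changes at 0 calls. It ended the calls of Spp1 between the left ventricle and the inferior (adjusted p = 0.069) and superior node (0.21) of failing hearts, and of Mmp2 between left atrium and left ventricle of healthy hearts (0.06). Within failing hearts the log2 difference of Spp1 between inferior node and left ventricle turned to 0.15 and 0.19 with the 2 limma settings, and ran from -2.50 to 0.11 with 1 library left out, 0.11 being without LV_0508. Between superior node and left ventricle it turned to 0.39 and 0.45, and ran from -2.14 to 0.42. Tgfb1 turned against the left ventricle to 0.25 and 0.26 in the superior node and 0.18 and 0.18 in the left atrium with the 2 limma settings.

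With 1 library left out, the difference in the log2 ratio of Timp1 to Mmp2 ran from 1.40 to 1.97 in the inferior node, 1.69 to 2.36 in the superior node, 1.38 to 1.81 in the right atrium, 2.50 to 3.49 in the left atrium and 1.75 to 2.54 in the left ventricle. An exact test of 4 against 3 cannot reach 0.05. The 2 healthy left ventricles limit every statement on that region.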
